A study of Mus musculus with 6 samples.

Results

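The matrix metalloproteinase genes described here were Mmp2, Mmp3, Mmp8, Mmp9, Mmp10, Mmp12, Mmp13, Mmp14, Mmp15 and Mmp19, a list of symbols looked up among the 54309 genes that the files list. All 10 were listed, each under 1 gene identifier. Female and male C57BL/6 mice of 6 to 8 weeks had the left sciatic nerve cut at mid-thigh (axotomy). The proximal stump, the side that keeps its connection to the dorsal root ganglion, was taken 24 h later. Each sex had 3 poly-A RNA libraries, and each library pooled the nerves of 2 mice. All 6 libraries came from axotomized nerves, no uninjured nerve was analysed here, and so the comparison is between the sexes after injury and says nothing of a change with injury. Estimated counts ranged from 49158283 to 69848769 per library.

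Matrix metalloproteinases are zinc-dependent endopeptidases that cut collagens, laminins, proteoglycans, cytokines and receptors outside the cell. Most are made as inactive proenzymes, are opened by plasmin, furin-like convertases or other metalloproteinases, and are held in check by the tissue inhibitors of metalloproteinases (TIMPs). In injured peripheral nerve they are known for opening the blood-nerve barrier, helping leukocytes to enter and remodelling the basal lamina that guides axons. The members cover several classes. Mmp2 and Mmp9 are gelatinases, Mmp3 and Mmp10 stromelysins, Mmp8 and Mmp13 collagenases, and Mmp12 the macrophage metalloelastase. Mmp14 and Mmp15 are anchored in the membrane, and Mmp19 stands apart from these classes.

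The sequences below are shown for 2 reasons. The first marks where Mmp12-204, the transcript to which most Mmp12 counts were assigned, departs from the protein-coding form, and the others are start regions of members of 1 chromosome 9 cluster that differed widely in level, with Mmp15 of chromosome 8 beside them. The first sequence is the beginning of exon 2 of Mmp12-204, read from GRCm39 at chr9:7348527-7348607 on the plus strand. Its first 58 bases lie ahead of exon 2 of the protein-coding transcript Mmp12-201, which begins at base 7348585, and the capitals mark the annotated stop codon at bases 7348605 to 7348607, after 64 codons.
Mmp12-204: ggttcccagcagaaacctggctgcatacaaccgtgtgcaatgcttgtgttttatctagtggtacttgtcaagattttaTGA
The start regions come from RefSeq on GRCm38.p6, where 7 of the 10 members had an entry. Mmp2, Mmp9 and Mmp19 had none. The stretches run from 120 bases before to 20 after the annotated start, all on the plus strand: Mmp13 at chr9:7272394-7272533, Mmp12 at its downstream start at chr9:7347254-7347393, Mmp3 at chr9:7445702-7445841, Mmp10 at chr9:7502222-7502361, Mmp8 at chr9:7558309-7558448 and Mmp15 at chr8:95352176-95352315. Capitals mark matches, on either strand, to the AP-1 motif TGANTCA and to the TATA motif TATAAA.
Mmp13: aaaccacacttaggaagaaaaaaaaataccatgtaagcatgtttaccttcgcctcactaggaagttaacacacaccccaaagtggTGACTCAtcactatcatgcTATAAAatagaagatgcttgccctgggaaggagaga
Mmp12: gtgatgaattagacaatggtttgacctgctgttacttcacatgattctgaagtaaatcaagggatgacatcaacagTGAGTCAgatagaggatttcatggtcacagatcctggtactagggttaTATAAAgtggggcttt
Mmp3: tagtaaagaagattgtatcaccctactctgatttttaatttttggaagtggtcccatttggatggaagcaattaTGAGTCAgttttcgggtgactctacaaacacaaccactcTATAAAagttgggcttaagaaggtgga
Mmp10: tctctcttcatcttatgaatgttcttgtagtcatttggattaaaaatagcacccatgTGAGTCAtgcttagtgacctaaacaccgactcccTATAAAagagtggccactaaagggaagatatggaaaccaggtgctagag
Mmp8: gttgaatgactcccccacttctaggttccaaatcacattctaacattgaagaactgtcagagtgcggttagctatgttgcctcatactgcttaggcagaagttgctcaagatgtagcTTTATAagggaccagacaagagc
Mmp15: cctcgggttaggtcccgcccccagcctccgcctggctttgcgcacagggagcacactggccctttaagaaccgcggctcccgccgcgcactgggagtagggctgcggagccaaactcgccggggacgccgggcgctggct

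The Mmp13, Mmp12, Mmp3 and Mmp10 windows of 300 bases each held 1 AP-1 match and 1 TATA match. Mmp8 held the TATA match alone, on the opposite strand, and neither Mmp15, Mmp14 nor the upstream start of Mmp12 held either. Of all 32851 windows of this length, 7.8% held the AP-1 motif, 13.6% the TATA motif and 1.54% both. The windows of Mmp15 and Mmp14 had a GC content of 66.0% and 56.0%, against 37.7% to 46.0% in the 6 windows of the chromosome 9 genes. A match describes letters in these windows and says nothing of binding, and the lack of a match says only that these letters were not in the window.

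The libraries were first read against their labels. Xist and 4 Y-linked genes followed the labelled sex, but female 3 also held low levels of Y-linked RNA, with Ddx3y at 2.21 CPM (counts scaled to the size of the library) against 40.2 to 55.6 CPM in the males and 0 in the other females. Schwann cell markers were present throughout and summed to 15610 to 21350 CPM in females and 36630 to 43250 CPM in males. Skeletal muscle markers summed to 333, 445 and 467 CPM in female 1, female 2 and male 3, against 3.49 to 30.7 CPM in the others. Adipocyte markers summed to 619, 354 and 84.9 CPM in females and 51.9, 275 and 117 CPM in males, highest in female 1, and all 6 had a negative log2 fold change (median −1.42). None of them was called by edgeR or limma-voom, 2 had an unadjusted p under 0.05 by edgeR, and DESeq2 called 1. Markers of central glia, which a peripheral nerve should lack, were near 0 in females, with sums of 2.07 to 4.08 CPM, and higher in males, with 19.6 to 54.9 CPM. Across the 18424 genes tested with the quasi-likelihood test of edgeR, 3.81% were called higher in males and 1.46% higher in females at an adjusted p under 0.1, the threshold used throughout, and without female 1 or without male 3 only 1 and 7 genes in all were called, against 971.

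Measured in TPM, a level corrected for transcript length and library depth, Mmp2 was the most abundant member in every library, at 126 to 241 TPM, and its lowest library lay above the highest library of the next gene, Mmp14. Mmp14 (64.0 to 86.2 TPM) and Mmp15 (47.9 to 93.7 TPM) followed by their means and overlapped each other. Mmp3, Mmp9 and Mmp19 came next by means of 46.1, 45.8 and 44.7 TPM. The order of these 5 genes holds for the means alone, since their ranges overlapped and in female 1 Mmp9 (86.8 TPM) and Mmp19 (85.8 TPM) lay above Mmp14 (77.2 TPM). A gap separated these 6 genes from Mmp8, at 3.75 to 17.2 TPM. Mmp12 stood at 0.611 to 7.61 TPM and Mmp13 at 0.139 to 1.498 TPM. Mmp8, Mmp12, Mmp13 and Mmp10 kept ranks 7, 8, 9 and 10 in each of the 6 libraries, although the ranges of Mmp8 and Mmp12 and of Mmp12 and Mmp13 overlapped across libraries. Mmp2 alone made up 24.5% to 46.2% of the summed TPM of the members.

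**Figure D1:**
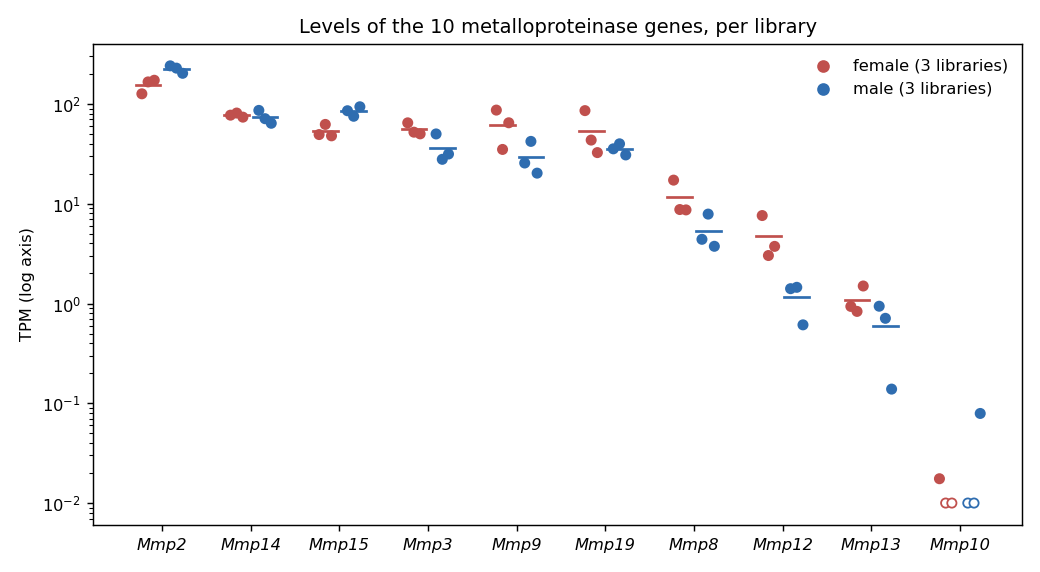
TPM on a log axis of the 10 members in each of the 3 female (red) and 3 male (blue) libraries, with bars at the mean of each sex and hollow points at 0 counts drawn at the foot of the axis. The members spanned levels from 241 TPM for Mmp2 to 0 for Mmp10. TPM values did not overlap between the sexes for Mmp2 and Mmp15 (males above, as in 13.4% of all genes) and for Mmp3, Mmp8 and Mmp12 (females above, as in 7.64%).

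In the comparison of the sexes, 9 of the 10 members had enough counts to be tested. Mmp15 was higher in males, Mmp12 was higher in females, and the other 7 tested members did not pass. One of the 9 was thus called in each direction, beside a background of 3.81% and 1.46% of all genes. The same single gene in each direction had CPM values that did not overlap between the sexes, where 13.9% of all tested genes had every male above every female and 11.5% had every female above every male. In TPM 2 members, Mmp2 and Mmp15, had every male above every female (13.4% of all genes), and 3, Mmp3, Mmp8 and Mmp12, had every female above every male (7.64% of all genes). The Wald test of DESeq2 called 1 member higher in males and 3 higher in females, Mmp8, Mmp9 and Mmp12, beside 7.64% and 5.59% of all genes. The log2 fold change (male minus female) was negative for 7 and positive for 2 of the 9 (53.2% of all genes were negative), with a median of −0.51 against −0.03 over all genes tested, and 5 of the 9 had an unadjusted p under 0.05, as did 20.7% of all genes. Summed over the 10 members the CPM overlapped between the sexes, at 1084, 945 and 959 CPM in the females and 1082, 917 and 907 CPM in the males. In bulk RNA, fewer cells of a type and less RNA per cell cannot be told apart.

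**Figure D2:**
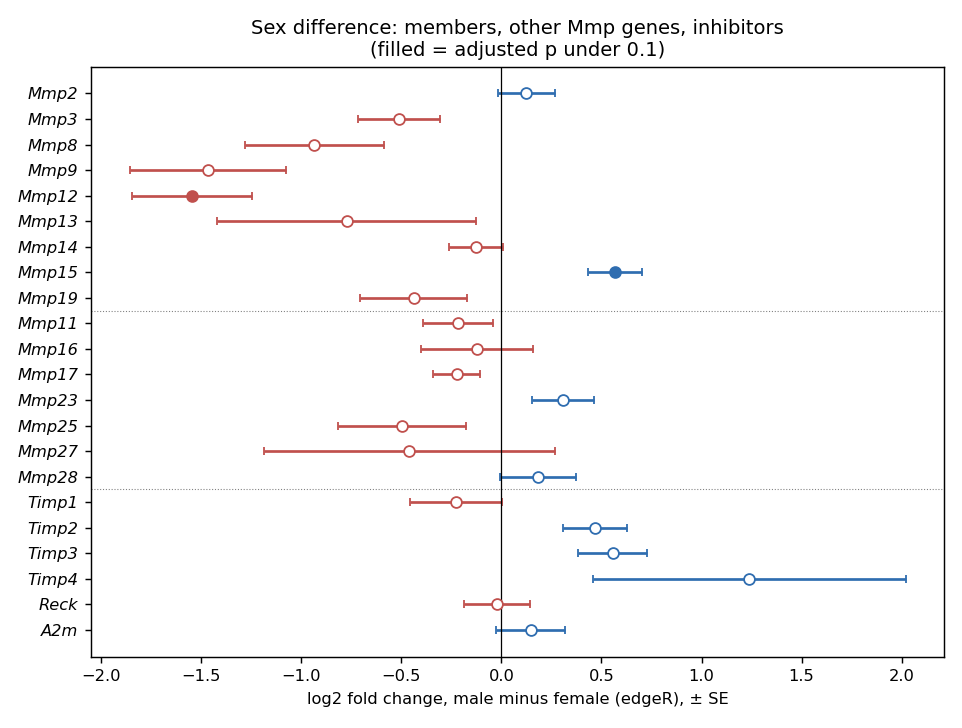
Log2 fold change, male minus female, from edgeR with its SE for the 9 tested members, the 7 tested other metalloproteinase genes and the 6 inhibitor genes, separated by dotted lines. Filled points are the 2 genes called, Mmp12 at −1.54 and Mmp15 at 0.57.

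Mmp12 encodes the macrophage metalloelastase, which cuts elastin and many other matrix proteins. It lies on chromosome 9, from 7344381 to 7369499 on the plus strand of GRCm39. Female nerves held 7.17, 4.23 and 5.50 CPM and male nerves 2.06, 2.46 and 1.27 CPM. Every female library lay above every male library, with female 1 highest and male 3 lowest. The female mean was 5.63 ± 1.47 CPM (SD, n = 3 libraries) and the male mean 1.93 ± 0.608 CPM. The levels differed 2.92-fold, with a log2 fold change of −1.54 ± 0.30 (SE) and an adjusted p of 0.0555 (edgeR). The call was lost without female 1 (adjusted p = 0.20), without male 1 (0.105) and without male 3 (0.172), while the log2 fold change stayed between −1.59 and −1.32 in these. The gene rested on few counts, 1294 over all libraries.

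Most of the Mmp12 counts did not fall on protein-coding transcripts. The transcript Mmp12-204, annotated as a target of nonsense-mediated decay (a class whose early stop codon marks the RNA for degradation), took 59.6% of them, and Mmp12-206, annotated as retaining introns, took 28.8%. Mmp12-204 shared 7 of its 10 exons exactly with Mmp12-201, carried the 58 extra bases printed above and ended 1573 bases short of the 3′ end of Mmp12-201. The counts of Mmp12-204 were 235, 109 and 230 in the females and 96.8, 86.8 and 13.9 in the males. Those of Mmp12-206 were 71.4, 93.6 and 67.2 in the females and 37.6, 52.1 and 51.1 in the males. For both transcripts each female count, not scaled to library size, was above each male count. In TPM this held for Mmp12-204 alone. Mmp12-206 overlapped in TPM, with 0.361 in female 3 and 0.393 in male 3. The protein-coding transcripts together held 59, 36 and 48 counts in the females and 4, 0 and 0 in the males, or 11.5% of all. When genes were summed over protein-coding transcripts alone, an alternative added after seeing these shares, Mmp12 had an adjusted p of 0.0458 (edgeR). It passed the count filter there through the female libraries alone, so this p lends no support to the difference. With males at or near 0 its fold is not given. The split of reads among overlapping transcripts is an estimate of the authors' quantification model, so no counting interval is attached to these shares.

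**Figure D3:**
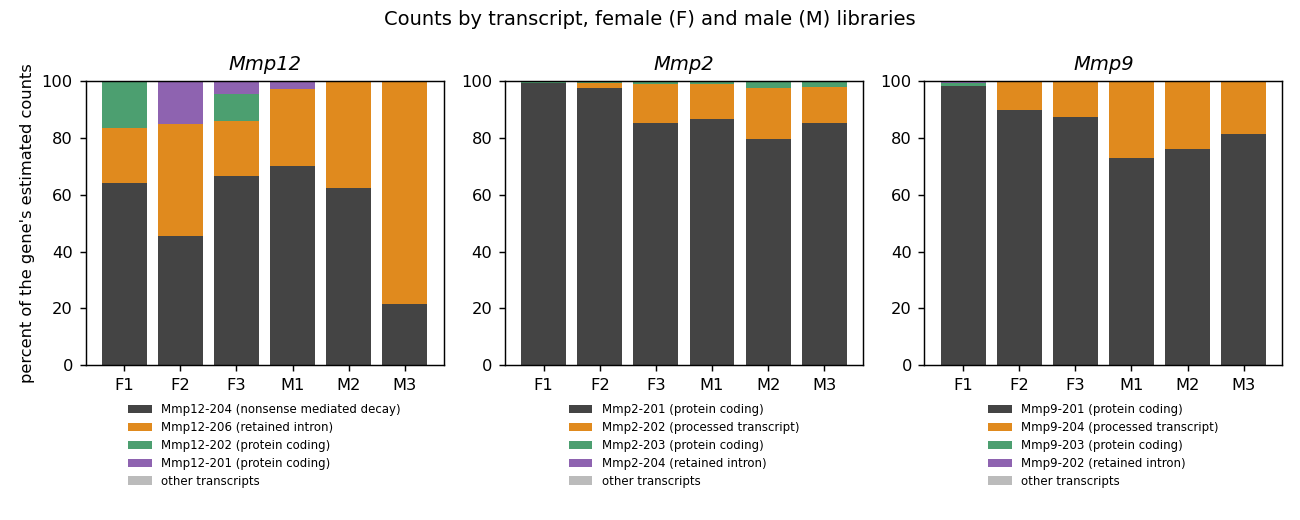
Percent of the estimated counts of Mmp12, Mmp2 and Mmp9 that fell on each transcript, in female (F1 to F3) and male (M1 to M3) libraries, stacked to 100. Mmp12-204 and Mmp12-206 filled most of each Mmp12 bar, and the short Mmp2-202 and Mmp9-204 were nearly absent from F1 (0% and 0.05%).

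Mmp15 encodes MT2-MMP, a membrane-bound enzyme that can activate the Mmp2 proenzyme. It lies on chromosome 8 of GRCm39, from 96078895 to 96101708 on the plus strand. Female nerves held 191, 221 and 190 CPM and male nerves 316, 253 and 323 CPM. The lowest male library, male 2, was above the highest female library, female 2. The means were 201 ± 17.4 CPM in females and 297 ± 38.7 CPM in males (SD, n = 3 each). This was 1.48-fold higher in males, with a log2 fold change of 0.57 ± 0.13 and an adjusted p of 0.0833 (edgeR). One transcript, Mmp15-201, held 99.9% of the counts. The call was lost without female 1 (adjusted p = 0.265), female 2 (0.139), male 1 (0.179) or male 3 (0.288), and when libraries were scaled by their size alone (0.107), with log2 fold changes between 0.50 and 0.64 in all of these. Of the 9 Schwann cell markers 8 had a positive log2 fold change (53.2% of all genes had a negative one), with a median of 0.47. By edgeR 2 were called higher in males, beside 3.81% of all genes, and 0 without female 1 or without male 3. DESeq2 called 5, beside 7.64% of all genes, and limma-voom 3. One of the 2 called by edgeR was S100b, a calcium-binding protein of glia named after its values were seen. It was at 174, 239 and 226 CPM in females and 447, 412 and 520.4 CPM in males, while Cdh19 and Ngfr had log2 fold changes of 0.01 and −0.10. Per 1000 CPM of summed Schwann cell markers Mmp15 stood at 12.2, 11.1 and 8.92 CPM in females and 7.87, 6.90 and 7.47 CPM in males, so the order of the sexes turned round on that scale. A sum weighs its most abundant markers most, and the median log2 fold change of the markers, 0.47, was below the 0.57 of Mmp15. This ratio was computed after the values were seen and carries no test. The part of the Schwann cell markers, and of the central glia markers given above, in the Mmp15 difference was not tested.

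Mmp14 encodes MT1-MMP, the main activator of the Mmp2 proenzyme and a collagenase in its own right, and lies on chromosome 14 of GRCm39 from 54668878 to 54682821. It was the steadiest member among the females, at 150, 148 and 157 CPM, and the males lay on both sides of them, at 166, 130 and 120 CPM. Its log2 fold change of −0.13 ± 0.14 did not pass (adjusted p = 0.636).

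Mmp2 encodes gelatinase A, which many resident cells make without stimulation, and lies on chromosome 8 of GRCm39 from 93553902 to 93580049. By counts the sexes overlapped, at 294, 346 and 303 CPM in females and 400.5, 317 and 311 CPM in males, with a log2 fold change of 0.13 ± 0.14 and an adjusted p of 0.651 (edgeR). Without male 1 the log2 fold change was −0.003. In TPM the males (241, 229 and 202) all lay above the females (126, 166 and 173), and the log2 difference of TPM + 0.1 was 0.54, with an adjusted p of 0.138 by limma. The 2 scales differ in how they weigh transcript length. Mmp2-202, a short transcript of 935 bases annotated as not coding that covers parts of the last 4 of the 13 exons of Mmp2-201, took 0, 366 and 2585 counts in the females and 3331, 3184 and 2016 in the males, while Mmp2-201 took 79.7% to 99.2% of the counts in every library. With protein-coding transcripts alone the log2 fold change was 0.02 (adjusted p = 0.958).

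Mmp9 encodes gelatinase B, which neutrophils store in granules and which macrophages also make, and lies on chromosome 2 of GRCm39 from 164780439 to 164797771. It had the widest spread among the abundant members. Female nerves held 170, 60.9 and 125 CPM and male nerves 35.99, 61.5 and 31.3 CPM. Female 2 and male 2 stood at the same level, and the other females were above the other males. The log2 fold change was −1.47 ± 0.39, nearly that of Mmp12, but the adjusted p of 0.103 (edgeR) missed the threshold. It passed with the Wald test of DESeq2 (9.93e-04), without the filter on low counts (0.0215), with protein-coding transcripts alone (0.0856), without female 2 (0.0711) and without male 2 (0.0911). Of the counts 88.0% fell on Mmp9-201, and 11.3% on Mmp9-204, a transcript of 2 exons that touches only the last of the 13 exons of Mmp9-201. The share on Mmp9-204 was 0.05%, 9.67% and 12.7% in females and 27.2%, 23.7% and 18.6% in males.

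Mmp8 encodes the neutrophil collagenase. Female nerves held 23.1, 12.1 and 15.5 CPM and male nerves 7.05, 13.5 and 5.97 CPM. Male 2 lay above female 2, and the sexes overlapped through that pair alone. In TPM the females (17.2, 8.75 and 8.67) all lay above the males (4.4, 7.87 and 3.75). The log2 fold change was −0.93 ± 0.35 with an adjusted p of 0.19 (edgeR), and it passed with the Wald test of DESeq2 (0.0492) and without male 2 (0.0834).

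Neutrophil and macrophage markers were measured beside Mmp8, Mmp9 and Mmp12. None of the 7 tested neutrophil markers was called by edgeR, DESeq2 or limma-voom, and none had an unadjusted p under 0.05 by edgeR. All 7 had a negative log2 fold change, where 53.2% of all genes did, with a median of −0.42. Their sum was 794, 297 and 988 CPM in females and 512, 896 and 282 CPM in males, and overlapped between the sexes. Female 2 and male 3 had the lowest sums, and S100a8, a calcium-binding protein that neutrophils hold in large amounts, showed the same 2 low libraries at 56.8 and 71.0 CPM. S100a8 and its partner S100a9 made up most of the sum and had log2 fold changes of −0.09 and −0.20, while the receptor gene Csf3r stood at −0.76 (adjusted p = 0.267). The granule genes Camp, Ngp, Elane and Mpo, which neutrophils express while they mature in the marrow, were near 0 in every library, each at or under 0.213 CPM. Per 1000 CPM of neutrophil markers, Mmp9 stood at 214, 205 and 127 CPM in females and 70.4, 68.7 and 111 CPM in males, without overlap, while Mmp8 stood at 29.02, 40.7 and 15.7 CPM and at 13.8, 15.0 and 21.2 CPM, with overlap. These ratios were computed after the values were seen and carry no test.

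The 13 macrophage markers were all tested, and 12 had a negative log2 fold change, beside 53.2% of all genes, with a median of −0.50. None passed by edgeR and 5 had an unadjusted p under 0.05, beside 20.7% of all genes. The Wald test of DESeq2 called 5 higher in females, beside 5.59% of all genes, and limma-voom called 0. The 2 with the largest mean CPM were Lyz2, lysozyme, with a log2 fold change of −0.40 (adjusted p = 0.379), and Arg1, arginase, with −0.73 (adjusted p = 0.238). The summed macrophage markers were 4689, 3304 and 3063 CPM in females and 2288, 3265 and 1836 CPM in males, so female 2, female 3 and male 2 were close and female 1 and male 3 stood at the ends, as they did for Mmp12. Per 1000 CPM of macrophage markers Mmp12 stood at 1.53, 1.28 and 1.80 CPM in females and 0.90, 0.75 and 0.69 CPM in males. On that scale Mmp9 stood at 36.2, 18.4 and 40.9 CPM in females and 15.7, 18.85 and 17.0 CPM in males, with overlap. Mmp8 overlapped too, at 4.92, 3.66 and 5.05 CPM and at 3.08, 4.13 and 3.25 CPM. Female 2, female 3 and male 2, close in the macrophage sum, held Mmp9 at 60.9, 125 and 61.5 CPM. These ratios were likewise computed after the values were seen and carry no test. The part of neutrophil or macrophage content in the differences of Mmp8, Mmp9 and Mmp12 was not tested.

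**Figure D4:**
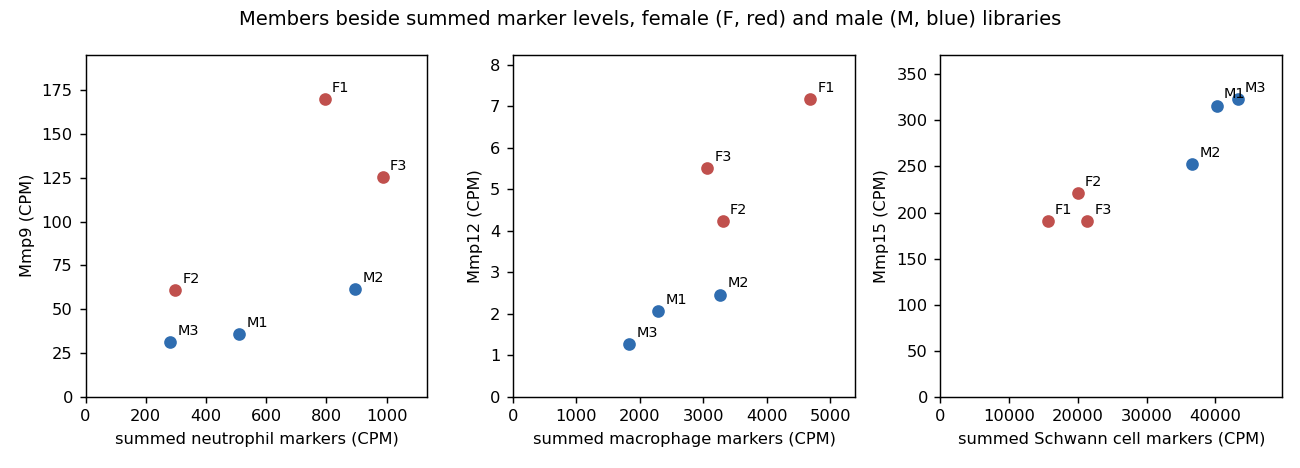
Mmp9, Mmp12 and Mmp15 in CPM against the summed CPM of neutrophil, macrophage and Schwann cell markers in the 6 libraries, female (F, red) and male (M, blue). At like neutrophil sums F1 and M2 (794 and 896 CPM) had Mmp9 at 170 and 61.5 CPM. Relative to the summed macrophage markers, a pairing not drawn, Mmp9 overlapped between the sexes. The Schwann cell sums fall into a female and a male set with the same order as Mmp15 between the sexes.

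Mmp3 encodes stromelysin-1, which opens other proenzymes such as that of Mmp9 and cuts basal lamina proteins. Female nerves held 73.4, 60.2 and 71.4 CPM and male nerves 65.2, 38.1 and 40.5 CPM. Male 1 lay among the females and the other males below all of them. The log2 fold change was −0.51 ± 0.21 with an adjusted p of 0.219 (edgeR), and without male 1 it was −0.80 with an adjusted p of 0.0507. Mmp10, which encodes stromelysin-2, was all but absent. It had 1 count in female 1, 5 counts in male 3 and 0 in the other libraries, where 3 counts would amount to 0.0445 to 0.0532 CPM, and it was not tested.

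Mmp13 encodes collagenase 3. Its levels were low, at 1.25, 1.19 and 2.94 CPM in females and 1.59, 1.31 and 0.234 CPM in males, and its log2 fold change of −0.77 ± 0.65 did not pass (adjusted p = 0.535). The extremes were female 3 and male 3, and the other 4 libraries lay close together. Mmp19 lies on chromosome 10 of GRCm39 from 128626773 to 128636695 and encodes an enzyme that cuts basement membrane proteins. Female 1 held 174 CPM, the other females 92.0 and 88.1 CPM, and the males 87.3, 101 and 73.5 CPM. Its log2 fold change was −0.44 ± 0.27 (adjusted p = 0.388), and female 1 alone stood apart from the rest. Female 1, where adipocyte markers were highest, was also the highest library for Mmp3, Mmp8, Mmp9 and Mmp12, and male 3 was the lowest for Mmp8, Mmp9, Mmp12, Mmp13, Mmp14 and Mmp19. The part of adipose RNA in these levels was not tested.

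Mmp13, Mmp12, Mmp3, Mmp10 and Mmp8 belong to a cluster of 10 metalloproteinase genes that spans 427 kb of chromosome 9 in GRCm39, from 7272514 to 7699587. Their neighbours in it are Mmp1b, Mmp1a, Mmp27, Mmp20 and Mmp7. Neighbouring genes differed widely in level. Mmp3 held 20266 counts over all libraries and Mmp8 4377, while Mmp1a, which lies 8.2 kb beyond the end of Mmp3, held 0 and Mmp10 held 6. Mmp12 held 1294 counts, Mmp13 509 and Mmp27 417, Mmp1b held 4, and Mmp20 and Mmp7 held 0. The start regions of Mmp3 and Mmp10 printed above carry the same TGAGTCA and TATAAA letters, and the 2 genes stood at 27.9 to 64.7 TPM and at 0 to 0.0791 TPM. Of the cluster members tested, Mmp12 alone was called. Mmp12 and Mmp1b overlap at their 3′ ends on opposite strands, and the libraries were stranded.

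**Figure D5:**
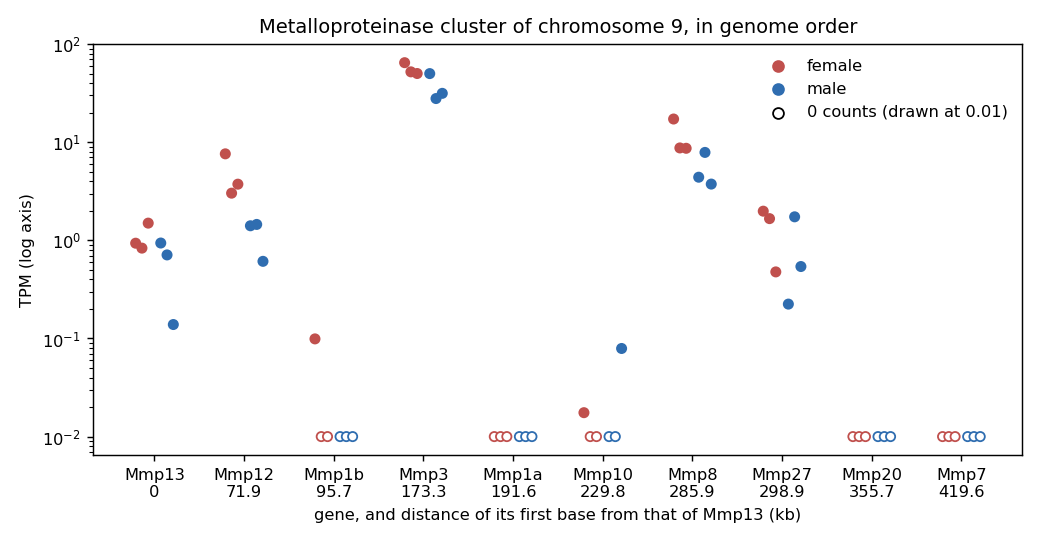
TPM on a log axis of the 10 genes of the chromosome 9 cluster in genome order, with the distance of each gene from Mmp13 in kb, in female (red) and male (blue) libraries, with hollow points for 0 counts. Levels reached 64.7 TPM for Mmp3, while Mmp1a, Mmp20 and Mmp7 were at 0 in every library.

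Of the 13 other metalloproteinase genes, 7 were tested and none was called by edgeR, DESeq2 or limma-voom, and none had an unadjusted p under 0.05 by edgeR. Their median log2 fold change was −0.22. Mmp17, a membrane-anchored enzyme, stood at 58.6, 52.1 and 67.9 CPM in females and 49.4, 54.5 and 49.1 CPM in males (adjusted p = 0.322). Mmp23 was the single one whose males, at 6.85, 6.67 and 7.59 CPM, all lay above the females, at 5.604, 6.35 and 5.09 CPM, and it did not pass (adjusted p = 0.304). Mmp28 ranged from 8.29 to 13.2 CPM, Mmp11 from 5.25 to 7.89 CPM, Mmp25 from 1.39 to 3.79 CPM, Mmp16 from 1.70 to 3.14 CPM and Mmp27 from 0.282 to 2.23 CPM. Mmp24 had 68 counts in all, 3, 3 and 5 in females and 5, 21 and 31 in males, and was not tested. Without male 1 it was called higher in males (adjusted p = 0.0573, edgeR). It passed the filter there through male 2 and male 3 alone, so that call lends no support to a difference. In the other 4 alternatives that tested it, Mmp24 did not pass (0.114 to 0.397). Mmp21 was at 0.

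The TIMPs, Reck and A2m hold metalloproteinases in check. None of the 6 inhibitor genes was called by edgeR or limma-voom, 2 had an unadjusted p under 0.05 by both (20.7% of all genes did by edgeR), and the Wald test of DESeq2 called those 2, Timp2 and Timp3, higher in males, beside 7.64% of all genes. Timp3, which is held in the extracellular matrix, stood at 667, 915 and 845 CPM in females and 1211, 1041 and 1318 CPM in males, with a log2 fold change of 0.56 ± 0.17 (adjusted p = 0.139 by edgeR, 0.0154 by DESeq2). Timp2, which takes part in the activation of the Mmp2 proenzyme by MT1-MMP besides inhibiting it, stood at 363, 457 and 357 CPM in females and 530, 471 and 626 CPM in males, with a log2 fold change of 0.47 ± 0.16 (adjusted p = 0.164 by edgeR, 0.0484 by DESeq2). For both, each male library lay above each female library in CPM, as in 13.9% of all genes. In TPM both overlapped, with female 2 above male 2 (206 and 199 TPM for Timp2, 337 and 321 TPM for Timp3). Timp1, the inducible inhibitor, overlapped between the sexes, at 532, 362 and 645 CPM in females and 419, 526 and 371 CPM in males (log2 fold change −0.23 ± 0.23, adjusted p = 0.613). Reck, a membrane-anchored inhibitor, ranged from 27.9 to 40.9 CPM, A2m, the protease trap alpha-2-macroglobulin, from 31.99 to 49.8 CPM, and Timp4 from 0.0795 to 0.851 CPM.

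Among 13 activators and binding partners, 12 were tested. Of these 1 was called higher in males, beside 3.81% of all genes, and 0 higher in females, beside 1.46%. The gene called was Pcsk6, a proprotein convertase related to furin. It stood at 41.8, 47.6 and 41.0 CPM in females and 69.8, 58.9 and 74.4 CPM in males, without overlap, with a log2 fold change of 0.64 ± 0.12 and an adjusted p of 0.047 (edgeR). That call was lost without female 1, male 1 or male 3, which are 3 of the 4 libraries whose omission also ended the call of Mmp15. Furin itself, named after its values were seen, pointed the other way. It stood at 161, 109 and 108 CPM in females and 84.5, 87.8 and 77.9 CPM in males. Furin was called higher in females with the Wald test of DESeq2, without the filter on low counts and without female 3. In the main edgeR fit it did not pass (log2 fold change −0.59 ± 0.17, adjusted p = 0.114). The plasminogen activators Plau and Plat did not pass either (adjusted p = 0.577 and 0.215), and Plg, which encodes plasminogen, was near 0 in every library, at or under 0.0355 CPM. Over the list the log2 fold change was negative for 9 of the 12 (53.2% of all genes), with a median of −0.24, and 4 had an unadjusted p under 0.05 (20.7% of all genes). In CPM 4 of the 12 had every female above every male (11.5% of all genes) and 1 had every male above every female (13.9%).

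None of the 12 cytokines and AP-1 subunits listed as inducers was called by edgeR, DESeq2 or limma-voom, and none had an unadjusted p under 0.05 by edgeR. Their median log2 fold change was −0.17. The 2 with the largest mean CPM were Fosl2, at 211, 147 and 156 CPM in females and 161, 137 and 129 CPM in males (adjusted p = 0.392), and Junb, at 140, 89.8 and 131 CPM in females and 127, 105 and 93.8 CPM in males (adjusted p = 0.694). Both encode subunits of AP-1, the factor named for the motif searched above, and both overlapped between the sexes.

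Of 16 matrix and myelin substrates 15 were tested. By edgeR 1 was called higher in males, beside 3.81% of all genes, and 0 higher in females, beside 1.46%. The gene called was Mbp, which encodes myelin basic protein, a known substrate of several members. It stood at 4977, 6055 and 6048 CPM in females and 11310, 11930 and 14170 CPM in males, 2.19-fold higher in males with a log2 fold change of 1.13 ± 0.23 and an adjusted p of 0.0592 (edgeR). The call was lost when any library but female 3 was left out. Mbp is expressed by Schwann cells and by oligodendrocytes, and both the Schwann cell and the central glia marker sums given above were higher in every male library, whose part in the Mbp difference was not tested. Among the other substrates Col4a1, Col4a2, Lama2, Lamb1, Lamc1, Nid1 and Hspg2 encode proteins of the basal lamina. Their log2 fold changes by edgeR lay between −0.06 and 0.22 and none passed. With log2(TPM + 0.1) and limma Lamc1 and Hspg2 were called higher in males (adjusted p = 0.0839 and 0.0948). In TPM every male lay above every female for Col4a1, Col4a2, Lamc1 and Hspg2, as in 13.4% of all genes, while Lama2, Lamb1 and Nid1 overlapped. Vcan, the proteoglycan versican, and Fn1, fibronectin, both named after their values were seen, had log2 fold changes of −0.86 ± 0.24 and −0.63 ± 0.23 with adjusted p-values of 0.115 and 0.183. In CPM each female library lay above each male library for Vcan, Fn1 and the elastin gene Eln, as in 11.5% of all genes. In TPM the sexes overlapped for each of these genes, with male 1 above female 3. In the other direction, Col1a1 and Col1a2, fibrillar collagens also named after their values were seen, had every male above every female in CPM (13.9% of all genes) and in TPM (13.4%). Their log2 fold changes were 0.44 ± 0.18 and 0.49 ± 0.18, with adjusted p-values of 0.22 and 0.193 (edgeR). The Wald test of DESeq2 called 3 substrates higher in males, Mbp, Col1a1 and Col1a2, beside 7.64% of all genes. It called 3 higher in females, Vcan, Fn1 and the elastin gene Eln, beside 5.59% of all genes.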

How the data were processed

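Libraries were grouped by the sex in their labels. The libraries were strand-specific and selected for poly-A RNA, and were read from both ends. The submitters' processing notes name Trimmomatic 0.39, Salmon 1.5.2 and MultiQC 1.9. The authors deposited Salmon estimated counts, TPM and effective length for 140789 transcripts. Salmon splits reads among overlapping transcripts by its model. The study states a GENCODE annotation of GRCm39. Coordinates here come from release M39 of that assembly, matched by gene identifier, so boundaries may differ from those used.

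Estimated counts and TPM were summed per gene and counts were rounded. In R 4.3.3, genes passing filterByExpr of edgeR 4.0.16 were scaled with TMM factors and compared by the quasi-likelihood F test, in which sex was the single term. P-values were adjusted by Benjamini-Hochberg over all 18424 genes, and the threshold was 0.1. The SE was the log2 fold change divided by the square root of F. CPM values used TMM library sizes. Alternatives used DESeq2 1.42.0, limma 3.58.1 (voom, and log2(TPM + 0.1)), other scalings and filters, a replicate block and the omission of each library. The edgeR script was tested on simulated data. Replicates are pools of separate mice, so p-values measure the spread between pools.

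The members and lists were chosen with earlier results of these data known. All members, other Mmp genes and inhibitors are named. Of other lists, called genes are named, or otherwise the 2 most abundant. One marker gene is not reported here by name.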

Additional observations from a re-analysis of the deposited data

How the results depend on the processing

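Mmp15 and Mmp12 kept their direction under all 17 alternatives run, at log2 fold changes of 0.50 to 0.71 and −5.11 to −1.32. The stricter threshold reuses the main fit, so it could not change a direction. Both genes had CPM without overlap between the sexes, so leaving out 1 library could hardly turn their direction either. The most negative value of Mmp12 came from protein-coding transcripts alone, where males were near 0. There Mmp12 passed the filter through the female libraries alone, so its direction and call in that fit carry no weight. Mmp2 reversed without male 1 (log2 fold change −0.0030) and ranged up to 0.2107 over the omissions of a library. The count of members called higher in males (1) became 0 with library size alone, and 0 to 1 when 1 library was left out. The count called higher in females (1) became 3 with DESeq2, 2 without the filter, 2 with protein-coding transcripts only, and 0 to 3 when 1 library was left out. At an adjusted p under 0.05 no member and no substrate was called, so the counts higher in males, higher in females and among substrates were each 0. Inhibitors called (0) became 2 with DESeq2. Activators and partners (1) became 2 with DESeq2, 2 without the filter and 0 to 4 with a library left out. Inducers (0) reached 1 without female 3 and were 0 to 1 over the omissions. Substrates (1) became 6 with DESeq2, 2 without the filter, 3 with log2(TPM + 0.1) and limma, 3 with protein-coding transcripts only and 0 to 3 with a library left out. The cause of these shifts was not tested.

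The replicate number was also fitted as a block. Same-numbered libraries did not deviate together (correlations of −0.036, −0.398 and −0.295), while female 2 with male 3 had a correlation of 0.469. With deviations from means of 3 libraries, this check cannot tell whether same-numbered libraries shared a processing step. The labels give only the number. With the replicate block the counts were 0 for members higher in males, 0 for members higher in females, 0 for activators and 0 for substrates, and 56 genes in all were called against 971.

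Over all genes DESeq2 called 2436, no filter 1617, log2(TPM + 0.1) with limma 466 and an adjusted p under 0.05 left 284. Omitting 1 library left 1 (female 1), 327 (female 2), 2612 (female 3), 651 (male 1), 760 (male 2) or 7 (male 3). With 3 pools a sex and Mmp10 and Mmp13 at few counts, small differences were not detectable.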
